A study of Homo sapiens with 6 samples.

Results

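The 2 libraries taken from Hep-3B cells on day 11 were compared with the 4 taken on days 7 and 9, which together were all 6 libraries of the series. The members were chosen by the day in the labels alone. Hep-3B is an epithelial line from a human hepatocellular carcinoma. It was grown in DMEM with fetal bovine serum and antibiotics. On each of the 3 days there was 1 library of cells with a control shRNA (shControl, labelled WT) and 1 of cells with an shRNA against NXN (shNXN, labelled NXN knockdown). NXN encodes nucleoredoxin, a protein of the thioredoxin family. All cells had received an shRNA by lentivirus and all had been selected in puromycin for a week, so no library was of untreated cells. The labels give the days as days after transfection and also as days after selection, and which of these was meant was not settled. The labels name no single clone, and none says that the 3 days came from separate cultures.

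The day and the individual library cannot be told apart within an shRNA, because each shRNA had 1 library a day. The 2 shRNAs therefore served as the replicates of day 11, with shRNA as a block in the model. Days 7 and 9 of an shRNA were treated as replicates of each other. The p-values measure the spread between these libraries, the gap between days 7 and 9 included, and this spread may be technical. With days as 3 levels, where days 7 and 9 are kept apart, 0 features were called. Values are CPM (a gene's counts scaled to a common library total) after TMM scaling, and a log2 difference is day 11 minus days 7 and 9. A feature was called higher or lower where edgeR's quasi-likelihood test gave a Benjamini-Hochberg adjusted p under 0.05. Because the libraries differed in how their counts followed the GC content of transcripts, the main results are given beside their values from a fit in which a curve of GC content was removed from each library, called the GC offset here.

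The libraries held 15349382 to 16332589 counts each, and the 6 pairs of days within an shRNA all differed by more than sampling noise. NXN, the targeted gene, was at 180.3, 137 and 143 CPM in shControl cells on days 7, 9 and 11 and 42.6, 47.6 and 39.6 CPM in shNXN cells. No shNXN library reached the level of a shControl library, and day 11 lay within or near the range of its own shRNA. Its log2 difference with time was -0.17 ± 0.15 (standard error; edgeR adjusted p = 0.461), and it was 0.12 with the GC offset, which turned its sign. All 13 markers of hepatocytes and liver cancer cells passed the filter on low counts, and their summed level (CPM without TMM scaling) was 13332 to 28104 CPM in the earlier libraries and 20808 to 21871 CPM on day 11. Of the 10 fibroblast and stellate cell markers, 3 passed that filter, and POSTN and THY1 had 0 counts. The 10 markers summed to 10.3 to 14 CPM before day 11 and 14.6 to 16.1 CPM on it. Of the 10 leukocyte markers CD3E, CD3D, MS4A1 and NKG7 had 0 counts, PTPRC had at most 3, and LYZ and CD68 made up most of a sum of 202 to 387 CPM before day 11 and 173 to 233 CPM on it. The 7 endothelial markers with a row in the table summed to less than 1 CPM in each library. The part of other cells in the results was not tested, and in bulk RNA fewer cells of a kind and less RNA per cell cannot be told apart.

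Genes of cholesterol synthesis had the largest share of members called among the 30 lists tested. Cholesterol is built from acetyl-CoA through mevalonate, isopentenyl and farnesyl pyrophosphate, squalene and lanosterol. The transcription factor SREBP2, the product of SREBF2, is held in the endoplasmic reticulum by INSIG proteins while sterols are plentiful. When sterols fall it moves to the Golgi, is cut, enters the nucleus and binds sterol regulatory elements in the promoters of these genes, usually near a CCAAT box bound by NF-Y. The liver is a main site of this pathway and of the uptake of lipoproteins.

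The promoters of 4 members called higher, picked by name, are shown because they hold letters that were searched for. Where a gene had several RefSeq promoters, the promoter with the most copies of them before the start site was taken. Those of HMGCS1 and MVD hold CCAAT but not CACNCCAC. Capitals mark CACNCCAC, a core of the sterol regulatory element, and CCAAT, each on either strand (so that CCAAT may read ATTGG). Each stretch is given 5′ to 3′ in the direction of the gene, ends before the RefSeq start site, and comes from RefSeq on GRCh38.p14.
SREBF2 (chr22:41832958-41833018, plus strand): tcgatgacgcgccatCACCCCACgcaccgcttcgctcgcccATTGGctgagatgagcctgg
HMGCS1 (chr5:43313493-43313582, minus strand): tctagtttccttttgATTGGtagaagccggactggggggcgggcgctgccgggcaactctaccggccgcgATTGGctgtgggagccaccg
IDI1 (chr10:1048954-1049033, minus strand): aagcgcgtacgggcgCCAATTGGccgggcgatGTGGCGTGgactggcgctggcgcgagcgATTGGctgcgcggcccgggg
MVD (chr16:88663157-88663265, minus strand): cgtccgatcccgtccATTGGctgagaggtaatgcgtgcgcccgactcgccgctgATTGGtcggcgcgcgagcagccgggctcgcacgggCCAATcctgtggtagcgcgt

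RefSeq's table held promoters of 300 bases (250 before to 50 after the start) for 18 of the 25 sterol genes. CACNCCAC lay in the promoters of SREBF2, IDI1, SC5D and INSIG1, and in 5.87% of all 35116 promoters. CCAAT lay in those of 16 of the 18 genes, and in 34.6% of all promoters. For both sequences the sterol list was counted by gene and the percentages by promoter, so these shares are not directly comparable. CCAAT was found for 11 of 12 genes called higher and for 5 of the 6 not called. In the IDI1 promoter CCAATTGG holds CCAAT on both strands in overlapping letters.

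Of the 25 sterol genes, all tested, 17 were higher on day 11 and 0 were lower (68% called, against 2.9% of the 14456 features tested that were called higher and 2.31% called lower). Their median log2 difference was 1.0, against 0.07 over all tested features, and it was 0.93 in shControl and 1.02 in shNXN cells. With the GC offset 15 were called higher, IDI1 and HSD17B7 no longer being among them, and the median was 0.96. Which genes of this list are named was decided with the values in view. The largest difference in the list was in HMGCS1, which makes the HMG-CoA that enters the pathway. HMGCS1 was at 186, 138 and 339.8 CPM in shControl cells on days 7, 9 and 11 and 28.2, 23.1 and 188 CPM in shNXN cells, a log2 difference of 2.05 ± 0.38 (standard error; edgeR adjusted p = 0.0434). Both day 11 libraries were above all 4 earlier ones, although the shNXN library of day 11 was only just above the shControl library of day 7.

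The early enzymes of the pathway that were called were all higher. ACAT2, which condenses acetyl-CoA, was at 56.1 to 103 CPM in the earlier libraries and at 179 and 186 CPM on day 11. MVK and MVD, mevalonate kinase and the decarboxylase, had log2 differences of 1.09 and 0.92, and those of IDI1 and FDPS, which make and join isopentenyl units, were 1.25 and 0.78. PMVK, the kinase between MVK and MVD, was not called: it was at 15.1, 16.6 and 13.6 CPM in shControl cells on days 7, 9 and 11 and 22.7, 25.0 and 15.7 CPM in shNXN cells, with each day 11 library below the earlier ones of its shRNA and a log2 difference of -0.41 ± 0.17 (standard error; edgeR adjusted p = 0.165).

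Among the enzymes at the branch to sterols, SQLE and FDFT1 had the smallest p of the list. SQLE, squalene epoxidase and another control point of the pathway, was at 52.7, 37.2 and 151 CPM in shControl cells on days 7, 9 and 11 and 31.7, 27.4 and 114 CPM in shNXN cells, a log2 difference of 1.85 ± 0.17 (standard error; edgeR adjusted p = 0.0194). FDFT1, which makes squalene, was at 63.6, 74.8 and 183 CPM in shControl cells on days 7, 9 and 11 and 51.8, 55.6 and 203 CPM in shNXN cells, a log2 difference of 1.67 ± 0.15 (standard error; edgeR adjusted p = 0.0194). For both genes the day 11 libraries stood above all 4 earlier ones. LSS, which closes the ring to lanosterol, had a log2 difference of 0.62 ± 0.13 (standard error; edgeR adjusted p = 0.0495).

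The later steps were divided. CYP51A1, which demethylates lanosterol, was at 73.5, 37.2 and 169 CPM in shControl cells on days 7, 9 and 11 and 35.0, 31.3 and 95.4 CPM in shNXN cells, a log2 difference of 1.57 ± 0.25 (standard error; edgeR adjusted p = 0.0357). NSDHL, HSD17B7, SC5D and DHCR7, which act after it, were called higher with log2 differences of 0.79, 0.97, 1.44 and 1.0. MSMO1, which acts between CYP51A1 and NSDHL, had a log2 difference of 1.40 ± 0.34 (standard error; edgeR adjusted p = 0.0604). It was at 19.4, 9.03 and 51.2 CPM in shControl cells on days 7, 9 and 11 and 7.89, 9.15 and 15.7 CPM in shNXN cells, where the day 11 library of shNXN cells lay below the day 7 library of shControl cells. TM7SF2, a sterol reductase, was at 37.3, 41.1 and 27.4 CPM in shControl cells on days 7, 9 and 11 and 47.8, 46.5 and 35.9 CPM in shNXN cells, with both day 11 libraries below all earlier ones, and did not pass (edgeR adjusted p = 0.0832). EBP, an isomerase, had a log2 difference of 0.02 and did not pass either.

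The regulators and the carrier were divided as well. SREBF2 was at 159, 159.7 and 251 CPM in shControl cells on days 7, 9 and 11 and 210.4, 218 and 311 CPM in shNXN cells, a log2 difference of 0.60 ± 0.10 (standard error; edgeR adjusted p = 0.0379). Both day 11 libraries were above all 4 earlier ones. INSIG1 and STARD4, an intracellular sterol carrier, had log2 differences of 0.83 and 1.39 and did not pass. NPC1, which exports cholesterol from lysosomes and stood in the lysosome list, was at 55.2 to 66.4 CPM in the earlier libraries and at 92.8 and 92.5 CPM on day 11, a log2 difference of 0.62 ± 0.12 (standard error; edgeR adjusted p = 0.0436), which was 0.33 by limma on log2(FPKM + 1).

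**Figure D1:**
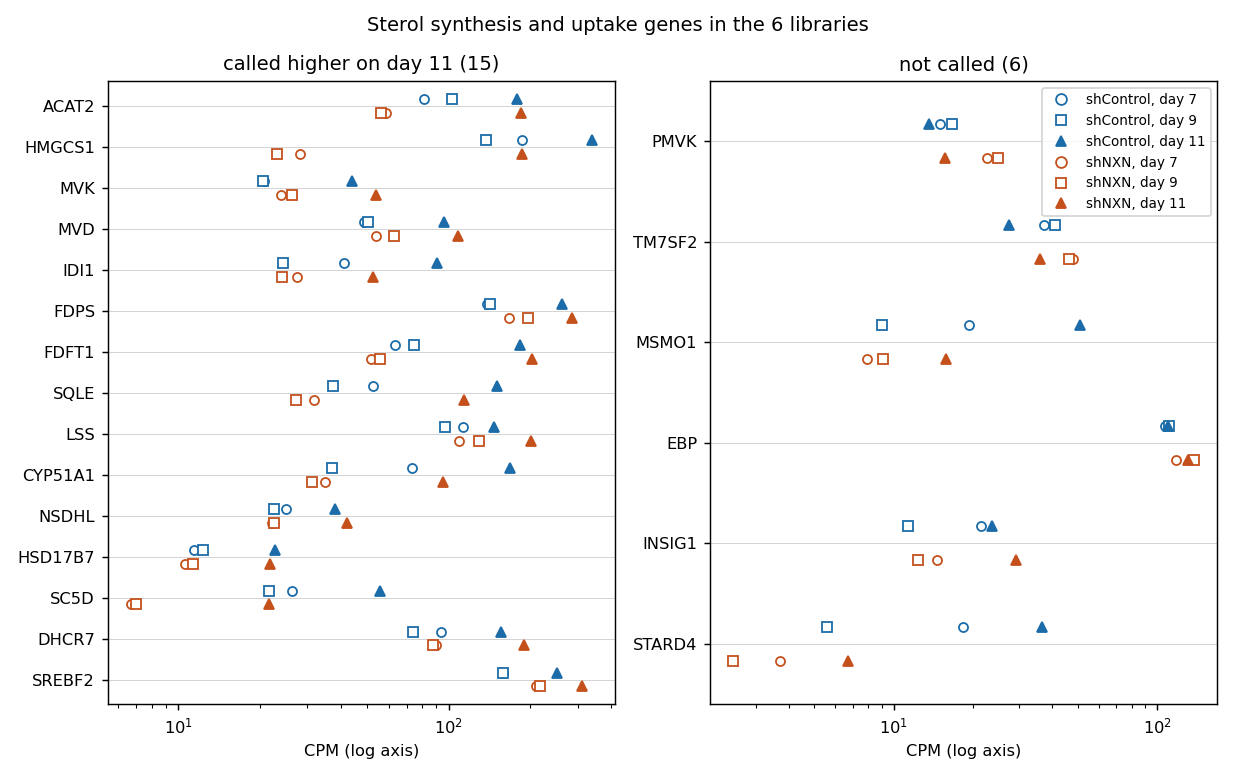
CPM on a log axis of 15 sterol genes called higher (left) and 6 not called (right) in each library, 1 point a library, with blue for shControl, orange for shNXN, open circles for day 7, open squares for day 9 and filled triangles for day 11. In the 15 genes on the left each filled triangle lies to the right of the open symbols of its colour, whereas for PMVK and TM7SF2 both triangles lie to the left of those of their colour.

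Fatty acid synthesis, which SREBP1 governs, moved the same way in part. Of 15 tested genes 4 were higher and 0 were lower (26.7% called, against 2.9% of all tested features called higher). The median log2 difference was 0.39. With the GC offset it was 0.55 and 5 were higher, against 2.52% of all tested features. SCD, the desaturase that makes oleate, was at 702, 635 and 1225 CPM in shControl cells on days 7, 9 and 11 and 506, 521 and 1274 CPM in shNXN cells, a log2 difference of 1.10 ± 0.12 (standard error; edgeR adjusted p = 0.0277). Both day 11 libraries were well above the 4 earlier ones. ELOVL5, an elongase, had a log2 difference of 1.04 ± 0.13 (standard error; edgeR adjusted p = 0.0277), which was 0.68 by limma on log2(FPKM + 1). ACLY, which supplies cytosolic acetyl-CoA, was at 324 to 401 CPM in the earlier libraries and at 565 and 574 CPM on day 11, and FADS1, the delta-5 desaturase, was also called. FASN, fatty acid synthase, had a log2 difference of 0.39 (edgeR adjusted p = 0.0665) and was called with the GC offset alone. SREBF1 had a log2 difference of -0.28 and did not pass.

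Over the whole transcriptome 753 of the 14456 features tested were called, which is 5.21%, of which 419 were higher and 334 lower on day 11. A difference of at least 1 on the log2 scale was reached by 222 of the former and 163 of the latter. In all 753 the day 11 library lay beyond both earlier libraries of its shRNA, in the same direction in shControl and in shNXN cells. Over all tested features that held for 28.2% upward and 23.1% downward, and 14% moved in opposite directions. Both day 11 libraries lay above all 4 earlier ones for 256 of the 419, against 10.9% of the tested features, and below all of them for 315 of the 334, against 11.5%. The called features were chosen from these same libraries by a test that favours shifts alike in both shRNA groups. Their agreement is therefore largely set by the choice and is not separate support. The median log2 difference of the genes called higher was 0.95 in shControl and 1.09 in shNXN cells, and that of the genes called lower was -1.13 and -0.80. Across all tested features the differences in the 2 shRNA groups had a Pearson correlation of 0.44 (Spearman 0.51), which fell to 0.37 when the GC curve of each library was removed. The 2 sets of differences share no library, but features are not independent replicates.

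**Figure D2:**
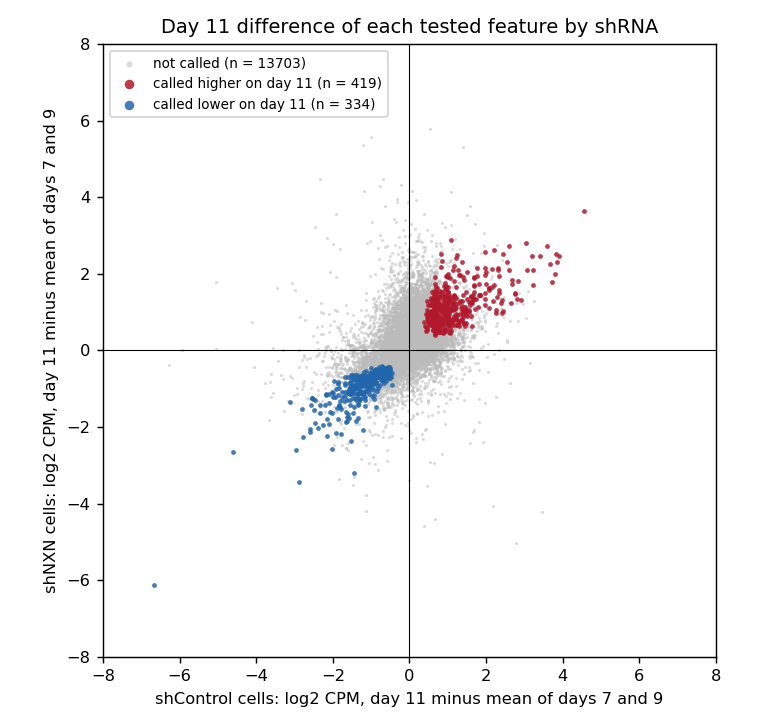
Log2 difference of day 11 from the mean of days 7 and 9 in shControl cells (horizontal) and in shNXN cells (vertical), 1 point for each of the 14456 tested features. The 419 features called higher (red) all lie in the upper right and the 334 called lower (blue) all in the lower left, and those not called (grey) fill all 4 quadrants. The calls were made from the same libraries as the plotted differences.

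The calls rested on the shNXN libraries of days 7 and 9. With either of them left out, 0 features were called (3224 without day 7 and 3119 without day 9 had an unadjusted p under 0.05, against 4453 with all libraries). Leaving out the shControl library of day 7, day 9 or day 11 left 173, 633 and 1223 calls, and leaving out the shNXN library of day 11 left 409. For the sterol genes these counts were 10, 16 and 12 for shControl and 10 for the shNXN library of day 11, and 0 without either earlier shNXN library. The median of the sterol genes stayed between 0.82 and 1.06 in all 17 alternatives. DESeq2 called 2680 features in all.

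Days 7 and 9 lay closer to each other than to day 11. The median absolute log2 gap between days 7 and 9 was 0.234 in shControl and 0.195 in shNXN cells, that between days 7 and 11 was 0.305 and 0.356, and that between days 9 and 11 was 0.394 and 0.408. Fitted as 3 separate days, each pair of days had 0 calls by edgeR, with 631, 2902 and 4017 features at an unadjusted p under 0.05 for day 9 against 7, day 11 against 7 and day 11 against 9. These are 4.36%, 20.1% and 27.8% of the features. DESeq2 called 74 (0.512%), 742 (5.13%) and 1816 (12.6%). The genes called higher had a median log2 difference of -0.12 between days 7 and 9, and those called lower had 0.09.

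The GC trend differed between libraries. The slope of a library's log2 deviation on transcript GC content, per 10 percentage points, was -0.275, -0.177 and -0.469 in shControl cells on days 7, 9 and 11 and 0.391, 0.499 and 0.031 in shNXN cells. Day 11 had the lowest slope in each shRNA group. It was different from the mean of the earlier days by -0.243 in shControl and by -0.414 in shNXN cells, so AT-rich transcripts gained counts and GC-rich ones lost them in both. The larger contrast was between the shRNA groups on days 7 and 9. Over the 6 libraries the slope differed by -0.329 between day 11 and the earlier days (exact permutation test over 15 splits, two-sided, p = 0.4, where the smallest p possible was 0.0667). These splits did not keep the shRNAs apart, whose slopes lay further from each other than the days did, so this p does not bear on the difference within an shRNA. On 8186 features at 10 CPM or more in every library the difference was -0.273.

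**Figure D3:**
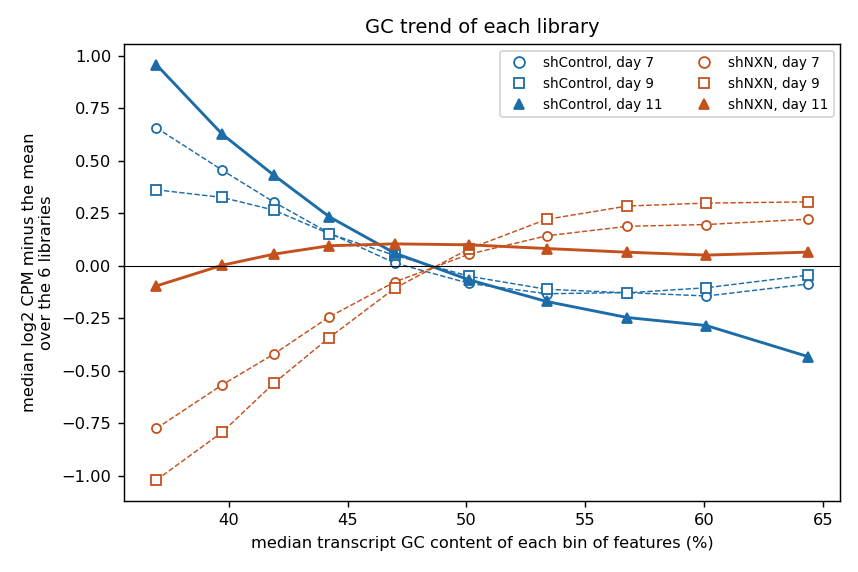
Median log2 CPM of each library relative to the mean of the 6 libraries, in 10 equal bins of the tested features ordered by transcript GC content in percent, with filled triangles and solid lines for day 11 and open symbols and dashed lines for days 7 and 9. In the bin with the lowest GC content the medians run from -1.02 in the shNXN library of day 9 to 0.96 in the shControl library of day 11, and the shNXN library of day 11 stays between -0.10 and 0.10.

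The calls followed the same trend. Genes called higher had a median GC content of 41.8% and genes called lower 58.6%, against 48.4% over the tested features with a known transcript. Of 10 equal bins of features by GC content, the lowest held 107 called higher and 0 lower, and in the highest 18 were higher and 88 lower. The log2 difference had a Spearman correlation of -0.57 with GC content across 12996 features, which was -0.01 with the offset. With the GC offset 486 features were called, 3.36% of those tested, of which 365 were higher (2.52%) and 121 lower (0.837%). They included 202 of the 419 and 89 of the 334, and 1 feature of each group changed sign. The offset removes any difference that follows GC content, whatever its origin, so the features it drops cannot be sorted by origin. The share of calls that were higher was 55.6% with TMM, 45.3% with library size alone and 75.1% with the GC offset.

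Among single genes with a symbol and a mean of at least 5 CPM, the 10 largest rises included keratins and genes of the matrix and cytoskeleton. KRT17, a keratin of basal epithelium, was at 3.34, 0.860 and 26.3 CPM in shControl cells on days 7, 9 and 11 and 5.59, 1.53 and 17.4 CPM in shNXN cells, a log2 difference of 2.99 ± 0.62 (standard error; edgeR adjusted p = 0.0477). MICAL2, which oxidises actin, was at 19.2, 17.7 and 173 CPM in shControl cells on days 7, 9 and 11 and 18.9, 23.9 and 91.4 CPM in shNXN cells, a log2 difference of 2.70 ± 0.26 (standard error; edgeR adjusted p = 0.0217). LOXL2, an enzyme that crosslinks collagen, was at 15.4, 19.4 and 162 CPM in shControl cells on days 7, 9 and 11 and 25.3, 26.9 and 85.7 CPM in shNXN cells, a log2 difference of 2.53 ± 0.32 (standard error; edgeR adjusted p = 0.0277), which was 1.63 without the shControl library of day 11. In all 3 the day 11 library of shControl cells was the highest and that of shNXN cells was next. SERPINE2, an inhibitor of thrombin and of plasminogen activators, was at 37.9, 38.9 and 233 CPM in shControl cells on days 7, 9 and 11 and 40.9, 40.3 and 173 CPM in shNXN cells, a log2 difference of 2.35 ± 0.14 (standard error; edgeR adjusted p = 0.0131). Its 4 earlier libraries hardly differed, and it was the gene with the smallest adjusted p.

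DIO3, BMP6, NPAS1, ACSL5 and KRT80 were also among them. DIO3, which inactivates thyroid hormone, had a log2 difference of 2.95. BMP6, a ligand of the TGF-beta family that regulates hepcidin, was at 1.90 to 3.56 CPM in the earlier libraries and at 14.1 and 12.4 CPM on day 11, and NPAS1, a bHLH-PAS transcription factor, was at 3.01 to 6.98 CPM in the earlier libraries and at 22.0 and 31.5 CPM on day 11. ACSL5, which activates long-chain fatty acids, had a log2 difference of 2.25. KRT80, another keratin, had a difference of 2.15, or 1.21 without the shControl library of day 11. All 10 genes were also called with the GC offset, with log2 differences from 2.06 (SERPINE2) to 3.23 (DIO3). By limma on log2(FPKM + 1), KRT17, LOXL2 and KRT80 were not called.

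The 10 largest falls included metabolic enzymes, transporters and a secreted protease. ANO1, a calcium-activated chloride channel, was at 12.8, 11.4 and 1.53 CPM in shControl cells on days 7, 9 and 11 and 34.1, 28.4 and 2.77 CPM in shNXN cells, a log2 difference of -3.25 ± 0.24 (standard error; edgeR adjusted p = 0.0189). Its day 11 libraries stood far below the 4 earlier ones. PHGDH, which commits glycolytic carbon to serine, was at 128, 169 and 33.0 CPM in shControl cells on days 7, 9 and 11 and 173, 309 and 66.6 CPM in shNXN cells, a log2 difference of -2.01 ± 0.27 (standard error; edgeR adjusted p = 0.0296). SLC6A9, a glycine transporter, was at 12.8 to 26.5 CPM in the earlier libraries and at 2.27 and 4.97 CPM on day 11. MASP1, a protease of the lectin pathway of complement, was at 34.7 to 74.8 CPM in the earlier libraries and at 8.53 and 18.9 CPM on day 11. SULT2A1, the sulfotransferase of steroids and bile acids, was at 52.9, 59.6 and 10.0 CPM in shControl cells on days 7, 9 and 11 and 29.1, 41.6 and 14 CPM in shNXN cells, a log2 difference of -1.88. EPHX2, soluble epoxide hydrolase, and PKLR, the liver form of pyruvate kinase, had log2 differences of -1.99 and -1.90, and those of ASB9, TCEA3 (a transcription elongation factor) and EXOC3L4 were -2.56, -2.11 and -1.86. In each of the 10 the day 11 libraries were below all 4 earlier ones, and 8 were also called with the GC offset, PKLR and EXOC3L4 not.

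**Figure D4:**
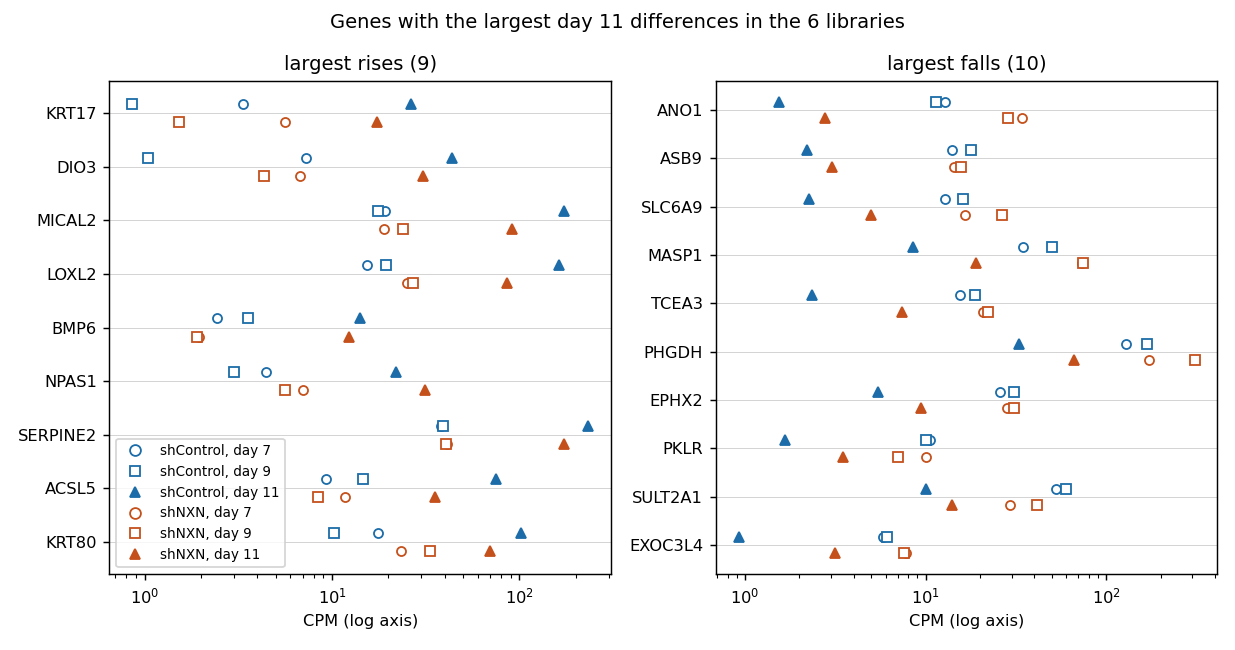
CPM on a log axis in each library of 9 of the 10 genes with the largest rises (left) and the 10 with the largest falls (right), with the same symbols as for the sterol genes. The filled triangles of day 11 lie to the right of all open symbols on the left and to the left of all open symbols on the right, and the day 11 value of shControl cells was the more extreme in every gene shown but NPAS1.

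Of 31 tested genes of matrix and adhesion 6 were higher and 1 lower, where 2.9% of all tested features were higher and 2.31% lower. The median log2 difference was 0.29 (0.57 in shControl and 0.22 in shNXN cells), and with the GC offset 9 were higher and 0 lower. ITGA2, the alpha 2 subunit of a collagen receptor, was at 90.1, 80.7 and 338 CPM in shControl cells on days 7, 9 and 11 and 37.3, 28.4 and 135 CPM in shNXN cells, a log2 difference of 2.02 ± 0.14 (standard error; edgeR adjusted p = 0.0158). ITGB1, its partner chain, was at 629.6, 659.5 and 1288 CPM in shControl cells on days 7, 9 and 11 and 205, 171 and 754 CPM in shNXN cells, a log2 difference of 1.53 ± 0.22 (standard error; edgeR adjusted p = 0.0314). Both day 11 libraries were above all 4 earlier ones in each gene, and the log2 difference of ITGB1 was 1.0 in shControl and 2.01 in shNXN cells (1.0 overall without the shNXN library of day 11 and 0.85 by limma on log2(FPKM + 1)). ITGAV, of the vitronectin receptors, had a log2 difference of 1.20 and 0.76 with the GC offset. ITGB4 and COL12A1 were also called higher, and LAMA5, a laminin chain, was called lower with a log2 difference of -0.70, or -0.22 with the GC offset, where it was not called.

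Among 31 genes of epithelial junctions and keratins 3 were higher and 1 lower (12.9% called, against 5.21% of all tested features). The median was 0.22 (0.26 with the GC offset). KRT8 and KRT18, the paired keratins of simple epithelium and hepatocytes, were both higher. KRT8 was at 1593, 1629 and 4303 CPM in shControl cells on days 7, 9 and 11 and 2032, 2695 and 3820.0 CPM in shNXN cells, and KRT18 was at 641, 585 and 1895 CPM in shControl cells on days 7, 9 and 11 and 925, 1186 and 1639 CPM in shNXN cells. The log2 differences were 1.07 and 1.16, or 0.61 and 0.55 without the shControl library of day 11. Both genes have many processed pseudogenes, so their counts could be shared with copies. TJP3, a scaffold of tight junctions, was at 61.0 to 74.6 CPM in the earlier libraries and at 20.6 and 26.7 CPM on day 11, a log2 difference of -1.52 ± 0.17 (standard error; edgeR adjusted p = 0.0277). CDH1, the junction cadherin, had a log2 difference of -0.14 and did not pass. Of 26 YAP and TEAD targets 2 were higher (7.69%, against 2.9% of all tested features), MYOF with a log2 difference of 1.75 and TGFB2 with 1.21 (0.81 with the GC offset, where it was not called). The list did not move as one: 16 members had a log2 difference above 0 and 10 below. With the GC offset 1 member was called higher and 1 lower.

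Of 32 tested plasma proteins of the liver 0 were higher and 5 lower, against 2.31% of all features lower, with a median of -0.44 (-0.28 with the GC offset, 4 lower). The median was -0.74 in shControl but -0.12 in shNXN cells. Among the 13 hepatocyte and liver cancer markers KRT8 and KRT18 were called higher and TTR lower. F7, coagulation factor VII, was at 88.8, 104 and 23.4 CPM in shControl cells on days 7, 9 and 11 and 105, 124 and 36.5 CPM in shNXN cells, a log2 difference of -1.84 ± 0.17 (standard error; edgeR adjusted p = 0.0194). The day 11 libraries were far below the earlier ones. ORM1 and ORM2, acute-phase glycoproteins with near-identical sequences whose counts are uncertain, had log2 differences of -1.02 and -1.09. F2, prothrombin, and TTR, transthyretin, had log2 differences of -0.76 and -0.77. Albumin, the main product of hepatocytes, did not follow: ALB was at 9554, 13640.1 and 6959.6 CPM in shControl cells on days 7, 9 and 11 and 1417, 684 and 7258 CPM in shNXN cells. It was lower on day 11 than before in shControl cells and higher in shNXN cells, where the day 7 and day 9 libraries were low, and its log2 difference of 1.41 did not pass (edgeR adjusted p = 0.276).

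In 4 related lists all called members were lower, but the medians were nearer to 0 in shNXN than in shControl cells. They were -0.82 and -0.37 (shControl and shNXN) for apolipoproteins, -0.71 and -0.08 for drug and steroid metabolism, -0.61 and -0.25 for hepatocyte transcription factors, and -0.51 and 0.04 for fatty acid oxidation. The shares called lower were 20%, 10.7%, 10% and 7.69% in that order, against 2.31% of all tested features. Of 15 tested apolipoprotein and lipoprotein genes 3 were lower, with a median of -0.50. LIPC, hepatic lipase, was at 30.5 to 40.4 CPM in the earlier libraries and at 12 and 16 CPM on day 11, and APOC1 and APOC2 had log2 differences of -0.74 and -0.70 (-0.50 and -0.41 with the GC offset, where neither was called). Of 28 genes of drug and steroid metabolism 3 were lower, with a median of -0.37. These were SULT2A1, SULT1A1 and ALDH2, the mitochondrial aldehyde dehydrogenase, and all 3 were also called with the GC offset. SULT1A1 has near-identical copies and its log2 difference of -0.97 is uncertain. Of 20 hepatocyte transcription factors ONECUT1 and GATA4 were lower, with log2 differences of -1.20 and -0.94 (-0.93 and -0.61 with the GC offset), the median of the list was -0.54 and its median with the GC offset was -0.27, with 0 called. Of 26 genes of fatty acid oxidation 2 were lower, ACOT2, a mitochondrial thioesterase, among them with a log2 difference of -0.83, and 0 were called with the GC offset.

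The integrated stress response, in which ATF4 drives amino acid synthesis and transport, had 5 lower and 0 higher of 28 tested genes. These 5 were 17.9% of the list, against 2.31% of all tested features called lower, and its median was -0.52. With the GC offset NUPR1 and PHGDH were still called lower, ATF4, PSPH and CBS were not (-0.51, -0.84 and -0.40), 1 gene was higher, and the median was -0.29. ATF4 itself was at 359, 341 and 215 CPM in shControl cells on days 7, 9 and 11 and 501, 532 and 298 CPM in shNXN cells, a log2 difference of -0.75 ± 0.10 (standard error; edgeR adjusted p = 0.0296). NUPR1, a stress-induced chromatin protein, was at 204, 235 and 61.1 CPM in shControl cells on days 7, 9 and 11 and 277, 438 and 129.9 CPM in shNXN cells, a log2 difference of -1.65 ± 0.22 (standard error; edgeR adjusted p = 0.0287). For both genes the day 11 libraries were below all 4 earlier ones. PHGDH and PSPH, the enzymes at either end of serine synthesis, were both lower (log2 differences of -2.01 and -0.96), and CBS, which uses serine to make cystathionine, had a log2 difference of -0.66. PSAT1, the aminotransferase between them, was at 179.8, 119.6 and 84.5 CPM in shControl cells on days 7, 9 and 11 and 153, 221 and 105 CPM in shNXN cells. Its log2 difference of -0.83 did not pass (edgeR adjusted p = 0.0682). TRIB3 and ASNS, further targets of ATF4, had log2 differences of 0.45 and -0.24 and did not pass, and TRIB3 was the gene called higher with the GC offset (0.76). PSPH, CBS, PSAT1, TRIB3 and ASNS were chosen after their values were seen.

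In glycolysis ALDOA and SLC16A3, aldolase and a lactate exporter, were the 2 of 18 genes called higher (5 with the GC offset). This was 11.1%, against 2.9% of all tested features called higher. Their log2 differences were 0.56 and 0.64 (that of SLC16A3 was 0.40 without the shControl library of day 11 and 1.0 with the GC offset). LDHA, lactate dehydrogenase, was at 401, 531 and 758 CPM in shControl cells on days 7, 9 and 11 and 319.7, 211 and 727 CPM in shNXN cells and did not pass (edgeR adjusted p = 0.0503). Of 29 heat shock and chaperone genes HSPH1 and HSPA1B were higher (6.90%, against 2.9% of all tested features), with log2 differences of 1.09 and 0.63. HSPA1B has a near-identical copy, and HSPH1 was at 0.72 with the GC offset. In the unfolded protein response PDIA4 and CALR, chaperones of the endoplasmic reticulum, were the 2 of 25 genes called lower (8%, against 2.31% of all tested features). Their log2 differences were -0.54 and -0.49, and -0.35 and -0.29 with the GC offset, where neither was called. In that fit 1 gene of the list was lower, XBP1 at -0.92, which was not called without the offset (-0.64). RPL13A and RPS21 were among the 3 of 78 cytosolic ribosomal proteins called lower, and ATP5MC2, NDUFB11 and COX5B the 3 of 69 respiratory chain subunits. These shares, 3.85% and 4.35%, were near the 2.31% of all tested features called lower. The medians of the 2 lists were -0.22 and -0.19. After the GC offset the log2 differences of RPL13A, RPS21 and NDUFB11 were -0.32, -0.27 and -0.29, and none of the 3 respiratory chain genes was called. In that fit 2 members of each list were called lower, against 0.837% of all tested features. The 2 of the respiratory chain were other subunits.

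A few calls stood in other lists, where 5.21% of all tested features were called. The shares called were 2.86% for DNA replication, 3.85% for NRF2 targets and 5.56% for the circadian clock, near or below that share. They were 16% for p53 targets and 9.76% for lysosome and autophagy, with 2 higher and 2 lower in each. RRM2, the regulated subunit of ribonucleotide reductase, was the 1 of 35 DNA replication genes called, with a log2 difference of 0.79 on the count scale but 0.14 by limma on log2(FPKM + 1), and it was not called with the GC offset (0.74). Of 25 p53 targets ZMAT3 and POLH were higher and BBC3 and FDXR lower, and of 41 lysosome and autophagy genes 2 were higher, NPC1 among them, and ULK1 and GAA were lower. With the GC offset the log2 differences were 0.56 for ZMAT3, -0.79 for BBC3, -0.33 for FDXR, -0.25 for ULK1 and -0.20 for GAA, none of them called. In that fit POLH was still called higher (1.02) and 1 p53 target was lower, TP53INP1 (-1.10). Of the lysosome and autophagy genes 2 were higher and 0 lower. Over all tested features 2.52% were higher and 0.837% lower in that fit. AKR1C1, an aldo-keto reductase with close paralogs, was the 1 of 26 NRF2 targets called, with a log2 difference of -1.11. PER1, of the circadian clock, was called lower with a log2 difference of -1.10, or -0.74 with the GC offset, where it was not called. ZNF260 was the 1 of 124 chromosome 19 zinc finger genes called (0.806%), with a log2 difference of 1.02, or 0.54 with the GC offset. The median of that list was 0.30, and -0.02 with the GC offset.

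There were 8 lists with 0 members called by edgeR: mitosis, hypoxia, interferon-stimulated genes, NF-kB targets, immediate-early genes, spliceosome factors, histones and metallothioneins. In that order they had 37, 24, 32, 28, 30, 44, 16 and 4 tested members. Their counts at an unadjusted p under 0.05 were 10, 6, 7, 3, 6, 8, 11 and 0, against 30.8% of all tested features. Only the histones were above that share. DESeq2's counts were 6, 4, 3, 2, 5, 2, 5 and 0, where it called 2680 of all 14456 features. In the fit with the GC offset 1 hypoxia gene and 1 spliceosome gene were called higher. All 16 tested replication-dependent histones were below 0, with a median log2 difference of -1.44 and -1.37 with the GC offset. For 9 of them day 11 lay below both earlier libraries in both shRNA groups, against 23.1% of all tested features. Members such as H1-5, at 0 CPM in both day 11 libraries, passed the filter on low counts only through the earlier libraries. Their fall on day 11 is therefore partly set by the filter. H1-2 was at 8.32, 7.93 and 4.42 CPM in shControl cells on days 7, 9 and 11 and 13.1, 15.3 and 7.87 CPM in shNXN cells, with both day 11 libraries below the 4 earlier ones and a log2 difference of -0.86 ± 0.19 (standard error; edgeR adjusted p = 0.0523). Apart from H1-2, H2AC6 and H1-4 the tested histone genes stayed under 4 CPM, and 20 of the 44 listed had a row in the table. Between days 7 and 9 the list had a median log2 difference of 0.93. The immediate-early genes had a median of -1.25 between days 7 and 9, and 0.63 between days 9 and 11.

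**Figure D5:**
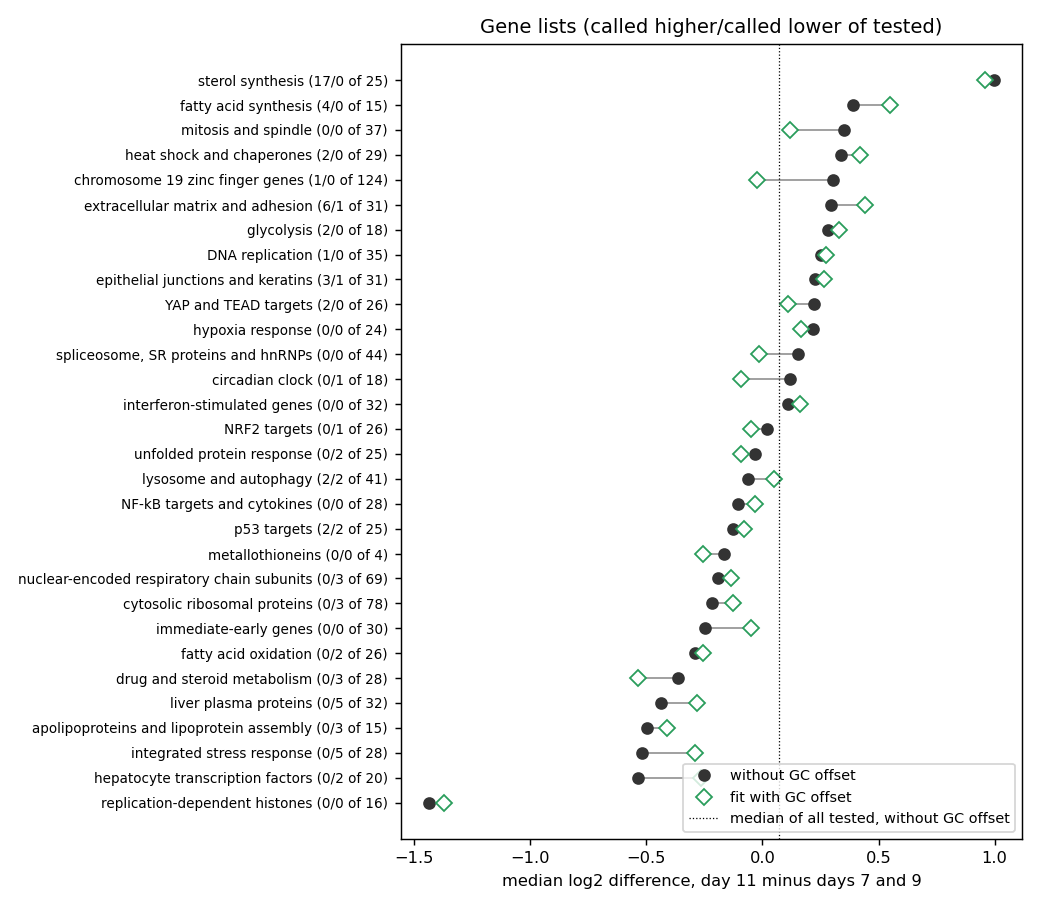
Median log2 difference of day 11 from days 7 and 9 over the tested members of each of 30 gene lists, without (filled circles) and with (open diamonds) the GC offset, with the number called higher and lower of those tested beside each name and a dotted line at the median of all tested features. Sterol synthesis is highest at 1.0 and 0.96, and the histones, with 0 members called, are lowest at -1.44 and -1.37. Some histones passed the filter on low counts only through the libraries of days 7 and 9.

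The difference with time itself differed between the shRNA groups in 3 of 14977 features tested for an interaction (0.02%). They were ESD, an esterase, TMEM238 and C4orf48, each with an edgeR adjusted p of 0.0279. ESD was at 40.1, 48.6 and 35.3 CPM in shControl and 2.06, 2.12 and 32.2 CPM in shNXN cells on days 7, 9 and 11, in CPM without TMM scaling. The day 7 and day 9 libraries of shNXN cells were low and the other 4 alike. TMEM238 was at 51.5, 46.1 and 0.673 CPM in shControl and 34.8, 52.0 and 40.2 CPM in shNXN cells on days 7, 9 and 11, and C4orf48 was at 46.8, 44.7 and 3.80 CPM in shControl and 40.1, 46.7 and 42.7 CPM in shNXN cells on days 7, 9 and 11. In these 2 genes the shControl library of day 11 stood alone below the other 5. With the GC offset 0 features were called (2028 at an unadjusted p under 0.05), and DESeq2 called 363 (2.51%). In the lists, 78 of 972 tested members were called with time, 42 higher and 36 lower, where 5.21% of all tested features were called.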

How the data were processed

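RNA was extracted with an RNeasy kit and libraries were made with a SMARTER mRNA-Seq kit, per the labels. The authors deposited 1 table of estimated counts and FPKM per feature (23406 features, of which 3092 were assembled loci and 3981 were at 0 in every library). The estimated counts, which need not be whole, were deposited without normalization and were rounded here. The FPKM values were scaled by the authors for length and depth. Every value column was matched to a sample. The aligner and counter are not given in the sources used here. The submitters' processing notes name the mouse builds GRCm38 and mm10, although the features carry human Ensembl identifiers, so no coordinates were taken from the table.

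Counts were tested with edgeR 4.0.16 in R 4.3.3 (TMM scaling, filterByExpr, quasi-likelihood test with terms for shRNA and for day 11 against days 7 and 9, Benjamini-Hochberg adjusted p under 0.05), which left 3 residual degrees of freedom. Normalization factors were 0.964 to 1.03. GC content came from the longest GENCODE 29 transcript of each gene and was known for 89.9% of tested features. The GC offset was a spline with 5 degrees of freedom in each library. It removes any difference that follows GC content, whatever its origin. Alternatives were other scalings and filters, DESeq2 1.42.0, limma 3.58.1 on log2(FPKM + 1) and log2(FPKM + 0.1), days as 3 levels, no shRNA term, and each library left out in turn. Fold changes on the log2(FPKM + pseudocount) scale understate the change of low genes. The code was tested on simulated data. Summaries were made in Python 3.11.15 (pandas 2.3.3, scipy 1.17.1).

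The comparison and the gene lists were chosen with earlier results of these data known. The genes named were NXN, the 10 largest rises and 10 largest falls among called features with a symbol, a mean of at least 5 CPM and day 11 beyond days 7 and 9 in both shRNA groups, the 5 largest of each also called with the GC offset, and up to 3 members of each list with the smallest p. Other genes named were chosen after their values were seen. Genes that reveal sex were not named. Some genes that these rules name are not reported here or plotted, and counts over lists include them.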

Additional observations from a re-analysis of the deposited data

Results flagged for a closer look

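Among the 4 libraries of days 7 and 9, 1 library stood apart from the other 3 in 3 of 116 genes examined, where chance gives about 1 in 20. Most of these genes were chosen by a small p between day 11 and the earlier libraries, so this rate may not apply to them. PKLR was at 7.06 CPM in the shNXN library of day 9, IL1B at 0.262 CPM and PER1 at 41.1 CPM in the shControl library of day 7.

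The difference with time differed between the shRNA groups in ESD (4.36 ± 0.33 on the log2 scale, shNXN minus shControl, standard error), TMEM238 (6.14 ± 0.50) and C4orf48 (3.65 ± 0.31), by the interaction term of edgeR. The day 11 libraries lay on opposite sides of the earlier ones in the 2 shRNA groups in PDGFRA, COL1A1 and CD68, with a log2 difference in shNXN cells that exceeded that in shControl cells by 1.03 for PDGFRA and by -0.78 for COL1A1 and -0.43 for CD68. The adjusted p of the interaction was not under 0.05 in these 3 genes. Opposite directions of this kind were found in 14% of all tested features. ALB, described above, was another such gene, with log2 differences of -0.71 in shControl and 2.88 in shNXN cells.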

How the results depend on the processing

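The count of 753 called features became 1059 with RLE scaling, 1127 with library size alone, 2680 with DESeq2, 1200 with no filter, 839 with at least 10 counts in every library, 486 with the GC offset, 418 with a GC and length offset, and 337 and 298 by limma with pseudocounts of 1 and 0.1. Of these, 2647 (DESeq2), 1198 (no filter), 476 and 413 (the 2 offsets) and 337 and 298 (limma) moved the same way in both shRNA groups. Days as 3 levels gave 0 (4230 at an unadjusted p under 0.05, edgeR). The shRNA block of the main model, which compares days within an shRNA, was the only pairing. No further pairing was possible because the replicate numbers in the labels are the days themselves. Without the shRNA block 1 feature was called, and 0 list members. Leaving out 1 library gave 0 to 1223 (0 without the shNXN library of day 7 or of day 9, 173 without the shControl library of day 7 and 409 without the shNXN library of day 11). Calls on 78 list members became 123 with library size alone, 226 with DESeq2, 122 with no filter, 0 with days as 3 levels, 42 and 39 by limma, and 0 to 106 without 1 library (25 without the shControl library of day 7). The 17 sterol genes became 0 without the shRNA block, 0 with days as 3 levels, 10 and 10 by limma, and 0 to 16 without 1 library. For day 9 against 7, day 11 against 7 and day 11 against 9 there were 3, 0 and 0 calls with library size alone, 8, 34 and 92 with the GC offset, and 74, 742 and 1816 with DESeq2. The interaction had 0 calls with the GC offset and 363 with DESeq2. The sign turned for NXN with the GC offset (0.12) and the GC and length offset (0.11), for MT2A with the latter (0.036), for PDGFRA without the shNXN library of day 11 (-0.074), and for COL1A1 (-0.31) and CD68 (-0.17) without the shControl library of day 11. The share of calls that were higher was 85% without the shControl library of day 11, 38.4% without the shNXN library of day 11, and 29.1% and 24.2% by limma. The causes were not tested beyond what each setting changes. With 1 library for each shRNA and day, low genes and single days have the least precision.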
